A study of Homo sapiens and Mus musculus with 29 samples.

Results

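HNF4G-KO pancreatic tumors and their peritoneal metastases were compared within 1 group of xenografts. The members were the 6 HNF4G-KO samples that carried the empty vector (EV), of 29 samples in the whole series and 21 HPAF-II samples. They were 4 tumors from the pancreas, 1 from each of 4 mice, and 2 metastases labelled as peritoneum. Metastasis 1 came from the mouse of tumor 2 and metastasis 2 from the mouse of tumor 4, so 2 mice gave both sites.

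HPAF-II is a human pancreatic ductal adenocarcinoma line. The HNF4G-KO cells were a pool of 3 CRISPR clones with frameshift mutations, and they were injected into the pancreas of NSG mice that were 8 weeks old on delivery. NSG mice lack T, B and natural killer cells but keep myeloid cells, stroma and all host tissues. No metastasis of control cells was analysed here, so the sites were compared in knockout cells alone. The closest other group, HNF4G-KO cells that overexpressed FOXA1 (HNF4G-KO+FOXA1-OE), had 5 tumors and 4 metastases and was used for 1 comparison at the end.

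Peritoneal spread is a common course of pancreatic cancer. A tumor in the pancreas grows as a dense mass in which oxygen is often short. Hypoxia-inducible factors (HIF) then raise genes of glucose uptake, glycolysis and acid handling. The sites of HIF hold the letters ACGTG or GCGTG. A deposit in the peritoneum meets other cells: mesothelium, fat and the muscle of the abdominal wall. In a bulk sample, fewer cells of a type and less RNA per cell cannot be told apart.

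Of the hypoxia list, 16 of 23 tested genes were lower in the metastases at an unadjusted p under 0.05, as described below. The sequences upstream of 3 of its 4 members with the smallest p are therefore shown here. They are the 250 bases before the annotated start (RefSeq, GRCh38.p14), printed on the strand of the gene with ACGTG, or its reverse complement CACGT, in capitals.

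CA9, chr9:35673678-35673927, plus strand: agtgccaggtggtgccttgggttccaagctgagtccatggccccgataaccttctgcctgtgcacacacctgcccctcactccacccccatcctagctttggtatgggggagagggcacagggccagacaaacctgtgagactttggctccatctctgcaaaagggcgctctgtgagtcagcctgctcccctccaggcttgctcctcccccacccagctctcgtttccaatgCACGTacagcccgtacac
PFKFB4, chr3:48556804-48557053, minus strand: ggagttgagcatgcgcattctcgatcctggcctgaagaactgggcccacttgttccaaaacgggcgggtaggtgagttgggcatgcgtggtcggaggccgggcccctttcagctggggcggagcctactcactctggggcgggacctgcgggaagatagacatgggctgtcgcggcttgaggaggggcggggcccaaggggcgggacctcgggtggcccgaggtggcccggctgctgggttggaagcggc
SLC2A1, chr1:42958869-42959118, minus strand: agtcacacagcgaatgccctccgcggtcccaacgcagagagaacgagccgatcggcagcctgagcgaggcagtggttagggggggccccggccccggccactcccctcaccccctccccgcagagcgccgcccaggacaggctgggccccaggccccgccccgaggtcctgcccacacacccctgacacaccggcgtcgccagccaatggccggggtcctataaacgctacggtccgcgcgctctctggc

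Of these, the CA9 window held 1 match and the PFKFB4 and SLC2A1 windows held 0. Across the list, 21 of 23 tested members matched a promoter entry, and 12 of those 21 windows held at least 1 match on either strand. Of all 27305 promoter windows of that length, 18.7% did. The list was chosen as hypoxia and glycolysis genes, so this share says nothing about the metastases. Of its members with an unadjusted p under 0.05 (limma), 14 matched an entry, and 8 of those 14 windows held a match. Only ACGTG and its reverse complement were searched, so GCGTG, which the PFKFB4 window holds, was not counted. A match is a description of letters, and a window without one says nothing of GCGTG or of sites elsewhere.

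The deposited values were RPKM (reads per kilobase of exon, scaled to the depth of the library), tested as log2(RPKM + 1) with limma. A difference is given as metastases minus tumors on that scale, which understates the change of low genes. The libraries held 40.9 M (metastasis 2) to 64.1 M reads, as recovered from the RPKM steps. Epithelial genes were read in every sample: the 25 epithelial junction genes summed to 3670 to 4430 RPKM in the tumors and to 4253 and 4284 RPKM in the metastases. HNF4G, the targeted gene, was read at 7.10, 8.42, 5.72 and 7.11 RPKM in tumors 1 to 4 and at 11.997 and 3.01 RPKM in metastases 1 and 2, against 2.48 to 3.47 RPKM in 3 control tumors. The transcript was thus not lost, and its RNA level does not check the knockout label of a frameshift allele.

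The samples differed in the other cell types they held, and metastasis 2 stood apart. Skeletal muscle genes were far higher in metastasis 2 than in the other 5 samples: ACTA1, the actin of skeletal muscle fibers, was at 1.24, 1.24, 1.07 and 1.29 RPKM in the tumors, 1.24 RPKM in metastasis 1 and 733 RPKM in metastasis 2. CKM, the muscle creatine kinase, was at 147 RPKM there and under 0.05 RPKM in the other 5 samples. The fast myosin heavy chains MYH1 and MYH4 were listed at 0 in those 5 samples and at 63.9 and 59.7 RPKM in metastasis 2. All 11 muscle markers in the table summed to 2.41 to 3.36 RPKM in the other 5 samples and to 1313 RPKM in metastasis 2. A wider muscle list, chosen after these values were seen, summed to 65.2 to 82.0 RPKM in the other 5 samples and to 2113 RPKM in metastasis 2, and of its 30 tested genes 1 was lower in the metastases on average (TNNT1, a slow-fiber troponin).

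Fibroblast genes showed the same sample. COL1A1, the main chain of type I collagen, was at 28.1, 15.4, 23.0 and 25.8 RPKM in the tumors, 25.1 RPKM in metastasis 1 and 161 RPKM in metastasis 2. COL3A1, of type III collagen, was at 16.1, 13.1, 11.9 and 10.96 RPKM in the tumors and at 19.4 and 88.4 RPKM in the metastases. The 18 fibroblast markers summed to 65.2 to 84.7 RPKM in the tumors, 87.4 RPKM in metastasis 1 and 460 RPKM in metastasis 2, although the defining markers DCN, LUM, PDGFRA and THY1 reached at most 1.23 RPKM (LUM, in metastasis 1).

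Acinar genes, which encode digestive enzymes of the normal pancreas, marked tumors 1, 2 and 4. CPA1, a pancreatic carboxypeptidase, was at 4.27, 2.18, 0.0335 and 1.61 RPKM in tumors 1 to 4 and was listed at 0 in both metastases. The 18 acinar markers summed to 28.3, 18.1, 0.713 and 8.93 RPKM in the tumors and to 0.736 and 1.28 RPKM in the metastases, so tumor 3 was as low as the metastases. Of the mesothelial list, 10 of 15 members, among them WT1 and LRRN4, were under 1 RPKM in all 6 samples, and MSLN, which many pancreatic cancers make, was at 79.7 to 132 RPKM in the tumors and 72.3 and 128 RPKM in the metastases. Of the adipocyte list, 11 of 16 were under 1 RPKM in all 6, with ADIPOQ at 0.01 RPKM or less. Endothelial genes summed to 8.11 to 10.0 RPKM, islet genes to 0.208 to 1.66 RPKM and blood genes to 0.127 to 1.13 RPKM over the 6 samples.

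**Figure D1:**
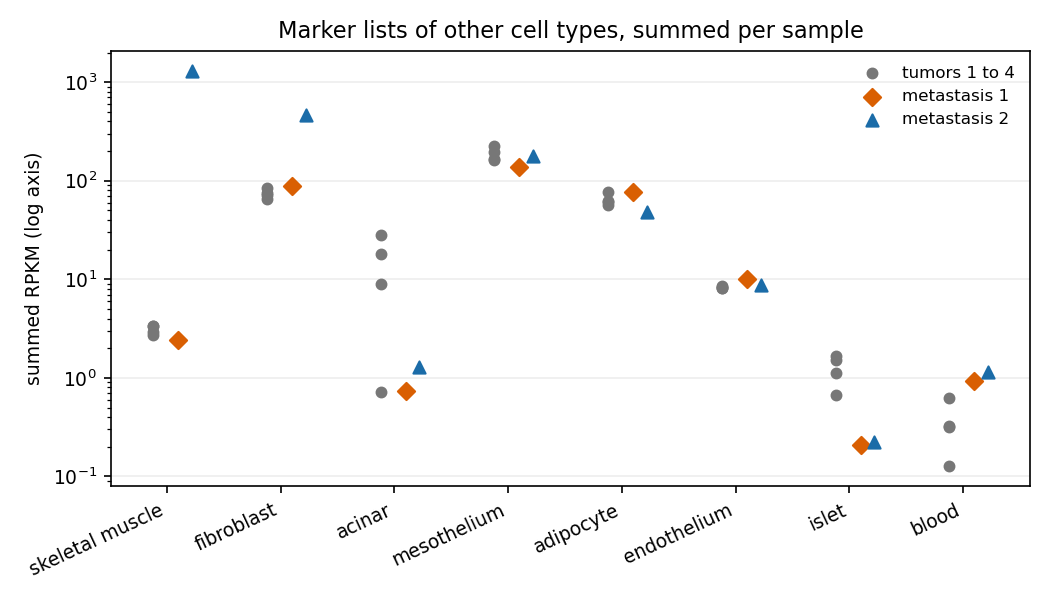
Summed RPKM (log axis) of 8 lists of marker genes in each of the 6 HNF4G-KO samples. Gray points are the 4 tumors, the orange diamond is metastasis 1 and the blue triangle is metastasis 2; metastasis 2 is far above the others for skeletal muscle (1313 RPKM) and fibroblast genes (460 RPKM), and both metastases and tumor 3 are low for acinar genes.

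Mouse host RNA can reach a human gene where the 2 genomes share sequence. In the coding sequence of ACTA1, the longest run within 1 exon that is identical in a mouse transcript spans 68 bases, longer than the 50-base reads stated in the study's methods. In COL3A1 it spans 44 bases, and in MYL6P2, a processed pseudogene (an intronless copy) of the myosin light chain gene MYL6 that is described below, 60 bases. These 3 stretches are printed from the human genome (GRCh38), with the shared run in capitals and up to 20 bases to each side.

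ACTA1, chr1:229431513-229431620, minus strand: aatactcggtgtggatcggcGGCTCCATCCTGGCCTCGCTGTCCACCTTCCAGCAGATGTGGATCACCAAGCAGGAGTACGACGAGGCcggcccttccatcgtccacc
COL3A1, chr2:188994755-188994831, plus strand: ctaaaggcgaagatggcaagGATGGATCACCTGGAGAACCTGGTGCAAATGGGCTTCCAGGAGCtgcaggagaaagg
MYL6P2, chr21:39488472-39488571, plus strand: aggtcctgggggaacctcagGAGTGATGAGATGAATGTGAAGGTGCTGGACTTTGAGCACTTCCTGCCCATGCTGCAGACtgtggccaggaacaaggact

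Over a whole gene such identical sequence was rare. Only exact matches were counted, so mouse reads that differ from the human gene by a few bases are not covered. Of windows of 32 bases, 3.54% in ACTA1, 1.25% in COL3A1, 7.20% in MYL6P2 and 10.4% in MYH1 were found in mouse transcripts, against 0.00% in CA9, TFF2 and FTLP5. Whether reads of a given gene came from mouse RNA was not tested.

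Across 13961 genes whose RPKM averaged 1 or more, 18 passed an adjusted p of 0.05 (limma, Benjamini-Hochberg), which is 0.129% of the genes tested. Of these, 13 fell (0.0931%) and 5 rose (0.0358%) in the metastases. All 18 had groups that did not overlap, which by itself fixes the same sign in both mice. Non-overlap alone was common, at 21.4% of all genes lower and 11.9% higher. An unadjusted p under 0.05 was reached by 14% of genes in the lower direction and 9.3% in the higher. The exact permutation test of 2 against 4 samples cannot go below 0.133 in 15 arrangements (two-sided), so no single gene could pass by that test alone.

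With the mouse kept as a fixed replicate block, 0 genes passed, although all 18 kept an unadjusted p under 0.05 in the same direction. With the mouse as a random effect (correlation 0.400 within a mouse), 579 genes were higher (4.15%) and 924 lower (6.62%), and all 18 were among them. Shifting each sample to the same median gave 22 higher and 14 lower. Leaving out tumor 1 gave 2 calls, and leaving out tumor 2, 3 or 4 gave 0. Without metastasis 1 there were 1416 (875 higher and 541 lower) and without metastasis 2 there were 1272 (389 higher and 883 lower), where the 1 remaining metastasis was assumed to vary like the tumors.

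The gene that fell most was CXCL5, a neutrophil-attracting chemokine (chromosome 4, 73995642 to 73998677). It was at 8.72, 5.31, 7.50 and 5.603 RPKM in tumors 1 to 4 and at 0.0914 and 0.0963 RPKM in metastases 1 and 2, a log2 difference of −2.81 ± 0.20 (SE, adjusted p = 0.0150). Both metastases were far below every tumor, and the differences within the 2 mice were −2.53 and −2.59. The related chemokine CXCL1 did not pass the test and was at 4.21 to 6.41 RPKM in the tumors and 9.79 and 7.39 RPKM in the metastases.

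Several of the 13 that fell act at the cell surface or in the matrix. COL9A2, a chain of type IX collagen, was at 6.61, 6.55, 5.21 and 6.65 RPKM in the tumors and 0.826 and 1.15 RPKM in the metastases (−1.87 ± 0.15, adjusted p = 0.0172). TRPV4, a calcium channel that responds to swelling and stretch, was at 6.48, 4.57, 5.07 and 4.99 RPKM in the tumors against 0.542 and 1.33 RPKM. In each case the metastases lay below all tumors with a wide gap. QRFPR, a receptor for RF-amide peptides, was at 1.78, 3.67, 3.19 and 3.74 RPKM in the tumors and listed at 0 in both metastases. PARM1, a mucin-like membrane protein, was at 2.15 to 3.65 RPKM against 0.191 and 0.340 RPKM, and GNG2, a G protein gamma subunit, at 2.27 to 3.53 RPKM against 0.182 and 0.169 RPKM.

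Among the 13 were 2 transcription factors. GATA2, known from blood and endothelial cells, was at 7.14, 7.48, 6.79 and 8.34 RPKM in the tumors and 2.51 and 1.20 RPKM in the metastases (−1.60 ± 0.20, adjusted p = 0.0452). SNAI3, of the Snail family of repressors, was at 6.80, 6.79, 6.62 and 8.55 RPKM against 1.83 and 2.57 RPKM (−1.36 ± 0.16, adjusted p = 0.0452). Neither metastasis reached the lowest tumor for either gene.

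Metabolic and less described genes made up the rest. BDH2, a short-chain dehydrogenase, was at 3.50 to 5.27 RPKM in the tumors and 0.828 and 1.17 RPKM in the metastases. UGT1A10, a glucuronidating enzyme, was at 1.88 to 2.31 RPKM against 0.152 and 0.0465 RPKM, with the limit that the UGT1A genes share exons, so reads may be divided among them. FER1L6, of the ferlin family, was at 9.90, 8.97, 10.9 and 12.6 RPKM against 2.72 and 2.24 RPKM, SOWAHB at 4.59 to 5.21 RPKM against 2.06 and 1.99 RPKM, and the long noncoding RNA LINC02432 at 1.74 to 2.13 RPKM against 0.0265 and 0 RPKM.

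**Figure D2:**
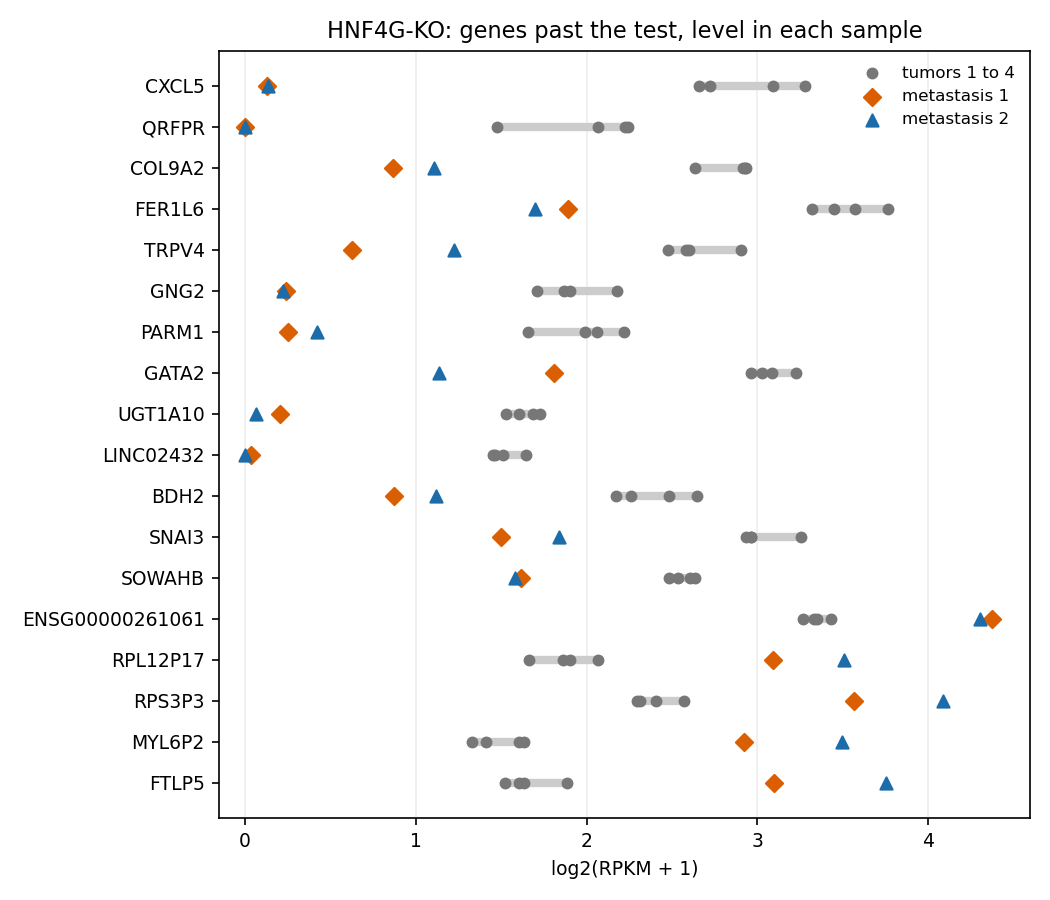
Level as log2(RPKM + 1) of the 18 genes that passed the test in each HNF4G-KO sample, ordered by their difference. Gray points are the 4 tumors with a bar over their range, the orange diamond is metastasis 1 and the blue triangle is metastasis 2; both metastases lie outside the tumor range for all 18, to the left for 13 and to the right for 5.

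Position in the genome was a property that the choice of samples did not use. Of the 18 genes that passed, 6 lie on chromosome 4, which held 469 of the 13961 genes tested. These were CXCL5, PARM1, SOWAHB, BDH2, QRFPR and LINC02432. Over the 391 protein-coding genes of chromosome 4, the median difference from the tumor mean was −0.33 in metastasis 1 and −0.26 in metastasis 2, against −0.14 and −0.085 over all 11036 protein-coding genes. An unadjusted p under 0.05 in the lower direction was reached by 36.3% of chromosome 4 genes, 26.4% of chromosome 3 genes and 15.6% overall. Chromosome 8 was lower in metastasis 2 alone, with medians of −0.052 in metastasis 1 and −0.33 in metastasis 2. DNA copy number was not measured, and the share of each of the 3 pooled clones in a sample was not tested.

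None of the 5 genes that rose encodes a protein. Of these, 4 are processed pseudogenes, whose reads may come from their parent genes. MYL6P2 was at 1.66, 2.04, 2.11 and 1.51 RPKM in the tumors and 6.57 and 10.3 RPKM in the metastases (1.71 ± 0.19, adjusted p = 0.0452). FTLP5, a copy of the ferritin light chain, was at 1.88 to 2.69 RPKM against 7.54 and 12.5 RPKM, RPL12P17 at 2.16 to 3.19 RPKM against 7.52 and 10.4 RPKM, and RPS3P3 at 3.90 to 4.94 RPKM against 10.8 and 16.0 RPKM. The fifth, the long noncoding RNA ENSG00000261061, was at 8.62 to 9.78 RPKM against 19.8 and 18.7 RPKM.

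As a class, processed pseudogenes were higher on average. Their median difference over 943 genes was 0.26 in metastasis 1 and 1.07 in metastasis 2. Of them, 428 had an unadjusted p under 0.05 in the higher direction, against 9.3% of all genes. Among protein-coding genes the sign followed exon length: medians were 0.50 and 0.23 (metastases 1 and 2) for 152 genes of up to 1000 bases and −0.28 and −0.17 for 2707 genes over 8000 bases. With that trend removed, 3 genes passed higher and 14 lower, among them 2 of the 5 and 10 of the 13. ATP5MKP1, another processed pseudogene, was at 2.24 to 4.24 RPKM in the tumors and 13.1 and 20.7 RPKM in the metastases (adjusted p = 0.0505), and SNHG25, a host transcript of small nucleolar RNA, at 5.16 to 7.19 RPKM against 17.5 and 14.9 RPKM. SF3B5, a short gene of the spliceosome, was the protein-coding gene with the smallest p among the higher ones, at 48.7 to 59.0 RPKM in the tumors and 118 and 111 RPKM in the metastases (adjusted p = 0.0505).

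Hypoxia and glycolysis genes were lower in the metastases in most members. Of 25 members, 23 were tested and 22 of those were lower in the metastases on average. The adjusted p was under 0.05 for 0 of them, with a smallest value of 0.0788, while 16 had an unadjusted p under 0.05, all lower, against 14% of all genes. In 15 of 23 the metastases did not overlap the tumors, against 21.4% of all genes. The median difference was −0.77, and −0.09 over all genes tested. With the mouse as a random effect, 11 of 23 passed, all lower, against 6.62% of all genes. The list's medians with 1 metastasis left out are given below.

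NDRG1, a stress gene that is induced at low oxygen, was at 40.0, 88.9, 89.4 and 91.2 RPKM in tumors 1 to 4 and 22.4 and 8.52 RPKM in metastases 1 and 2 (−2.32 ± 0.44, adjusted p = 0.0788). CA9, the carbonic anhydrase that handles acid at the membrane, was at 5.84, 9.37, 10.6 and 9.33 RPKM against 3.30 and 1.17 RPKM (−1.65 ± 0.31, adjusted p = 0.0788). Tumor 1 was the lowest tumor for both genes and yet above both metastases. SLC2A1, the glucose transporter GLUT1, was at 103, 167, 189 and 183 RPKM against 67.4 and 47.3 RPKM (−1.45 ± 0.28, adjusted p = 0.0788). PFKFB4, which makes the activator of phosphofructokinase, was at 2.31, 4.15, 4.97 and 4.36 RPKM against 1.05 and 1.06 RPKM (−1.24 ± 0.24, adjusted p = 0.0788). With the mouse as a random effect the adjusted p of each of the 4 was 0.0229. Among these 4, NDRG1 is the gene whose upstream sequence is not printed above. Its unadjusted p (limma, 0.000973) was slightly below that of SLC2A1 (0.000975).

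Within the mice, these differences were −1.94 and −3.28 for NDRG1, −1.27 and −2.25 for CA9, −1.29 and −1.93 for SLC2A1, and −1.33 and −1.38 for PFKFB4. LOX, an enzyme that crosslinks collagen and is named here after its value was seen, was the 1 member higher on average, at 0.549 to 1.03 RPKM in the tumors and 0.921 and 2.52 RPKM in the metastases. Without metastasis 2, the sample with muscle RNA, the list's median was −0.84, and without metastasis 1 it was −1.23.

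**Figure D3:**
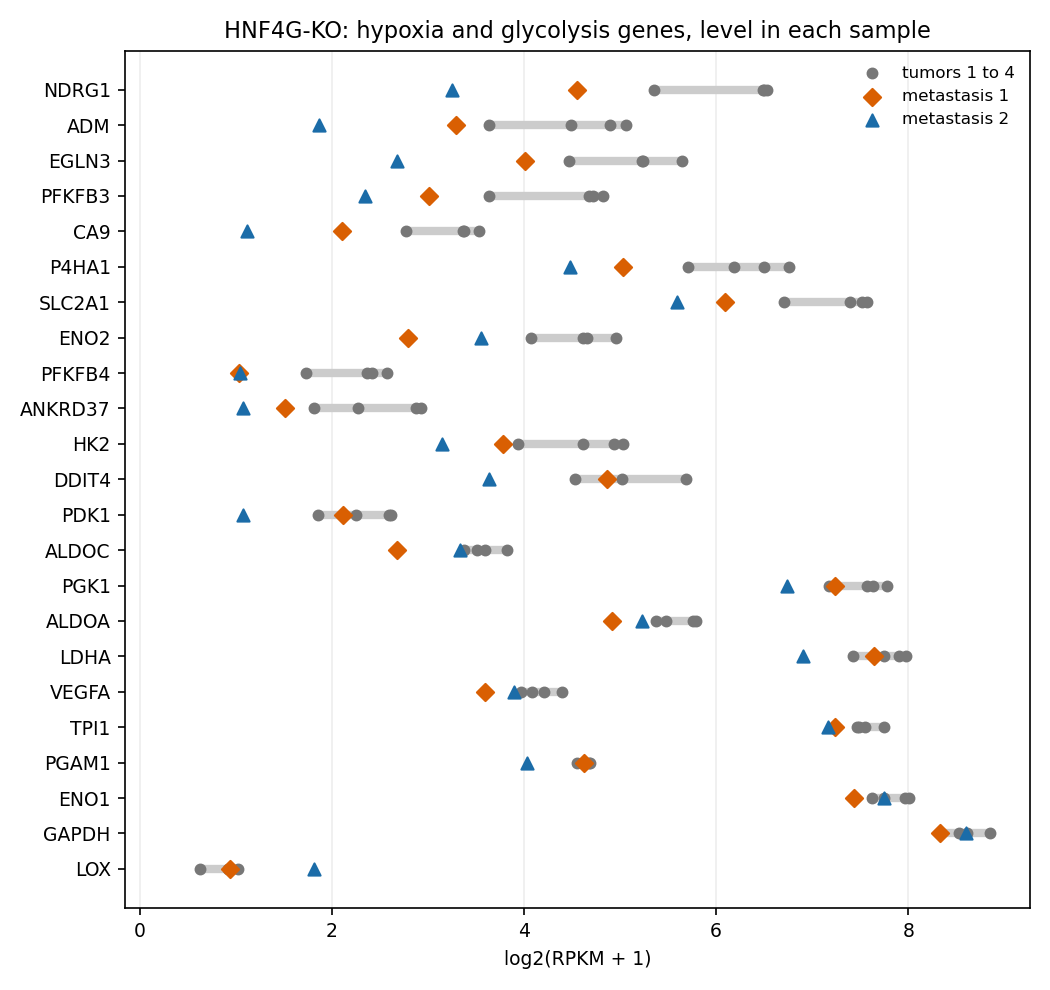
Level as log2(RPKM + 1) of the 23 tested hypoxia and glycolysis genes in each HNF4G-KO sample, ordered by their difference. Gray points are the 4 tumors with a bar over their range, the orange diamond is metastasis 1 and the blue triangle is metastasis 2; both metastases lie left of all tumors for 15 genes, and LOX is the 1 gene with a higher mean in the metastases.

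Mucins and other secreted epithelial products were lower on average for 16 of 17 tested members. None of them passed an adjusted p of 0.05. An unadjusted p under 0.05 was reached by 7, all lower, against 14% of all genes, with a list median of −0.71. TFF2, a trefoil peptide of the mucous layer, was at 159, 145, 162 and 97.5 RPKM in the tumors and 48.8 and 44.5 RPKM in the metastases (−1.55 ± 0.23, adjusted p = 0.0620). MUC20 was at 19.0 to 20.8 RPKM against 11.1 and 8.99 RPKM (adjusted p = 0.0620), and MUC4, a membrane mucin, at 7.48 to 12.6 RPKM against 3.10 and 3.63 RPKM (adjusted p = 0.0733). TFF3 was at 9.42 to 26.9 RPKM against 7.11 and 4.44 RPKM. Of the 17, 4 passed with the mouse as a random effect, all lower, against 6.62% of all genes. With the mouse as a fixed block 4 of 17 kept an unadjusted p under 0.05, against 10.4% of all genes. The 2 metastases differed, with a median of −0.46 in metastasis 1 and −1.07 in metastasis 2. Within the mice, the list's median was −0.11 (metastasis 1 minus tumor 2) and −0.94 (metastasis 2 minus tumor 4). Over all genes tested these medians were −0.13 and −0.045, so the list was no lower than all genes in the first mouse.

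The classical subtype list, which shares the trefoil genes, had 5 of 21 members lower and 1 higher at an unadjusted p under 0.05. Its median was −0.13 in metastasis 1 and −0.71 in metastasis 2, against −0.11 and −0.050 over all genes tested. Within the first and second mouse the list's median was −0.053 and −0.47. CEACAM5, an adhesion molecule of gut epithelium, was at 639 to 773 RPKM against 538 and 426 RPKM. The basal-like list had 2 of 18 lower and 1 higher, and its median was 0.33 in metastasis 1 and −0.72 in metastasis 2. Of epithelial junction genes 4 of 24 were lower and 1 higher. The basal-like and junction counts are close to or below the shares of all genes at that threshold, 14% lower and 9.3% higher. OCLN, of the tight junction, was at 6.26 to 7.25 RPKM against 5.06 and 3.39 RPKM, ELF3, an epithelial transcription factor, at 41.0 to 50.7 RPKM against 33.5 and 19.0 RPKM, and the keratin KRT8 at 698 to 843 RPKM against 1011 and 990.0 RPKM. The mesenchymal list had 2 of 12 higher and 1 lower, with medians of −0.38 and 0.78 in the 2 metastases, and it shares SPARC and FN1 with the fibroblast markers that were high in metastasis 2.

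**Figure D4:**
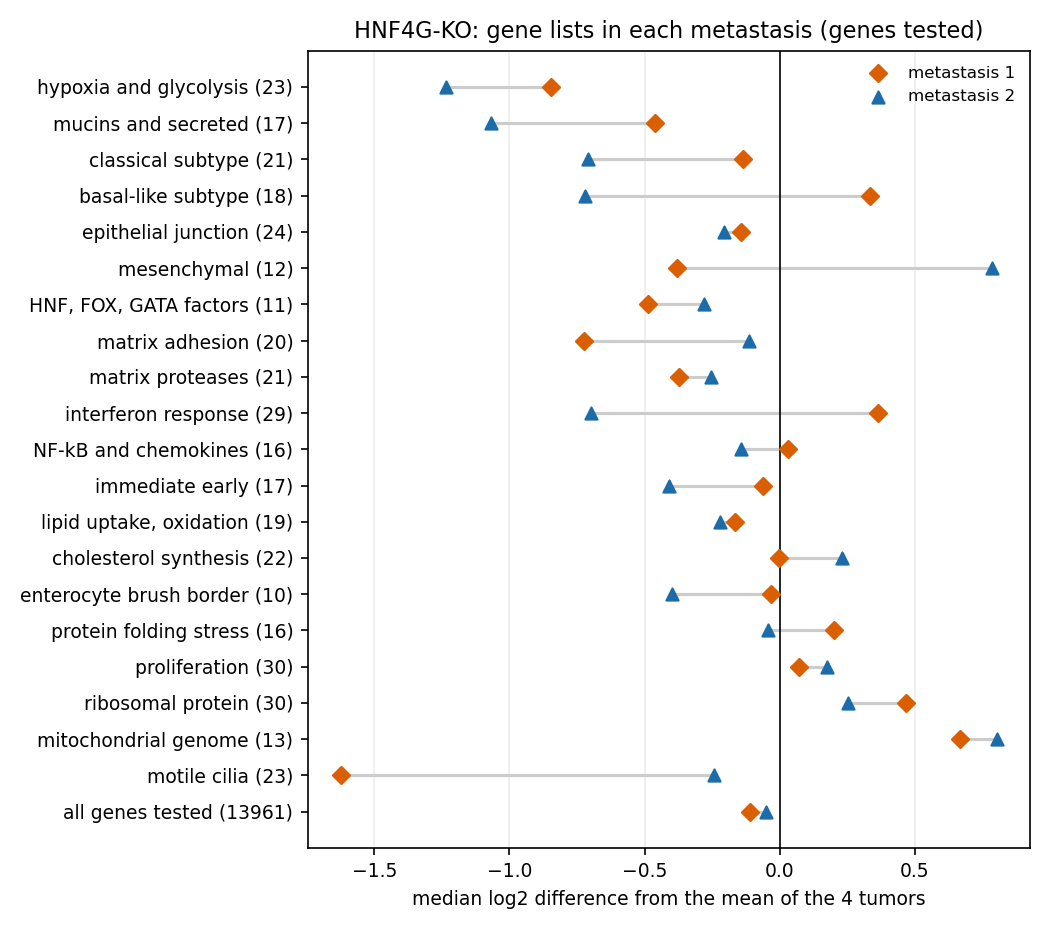
Median log2 difference of each gene list from the mean of the 4 tumors, for metastasis 1 (orange diamond) and metastasis 2 (blue triangle), with the number of genes tested in parentheses. The hypoxia and mucin lists are below 0 and the ribosomal protein and mitochondrial genome lists above 0 in both metastases, whereas the basal-like, mesenchymal and interferon lists differ in sign between them.

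Matrix adhesion and protease genes were mostly lower on average, and none passed an adjusted p of 0.05. Of the protease list, 9 of 21 had an unadjusted p under 0.05, all lower, against 14% of all genes. ADAM9, a membrane metalloprotease, was at 111 to 130.1 RPKM in the tumors and 61.8 and 63.8 RPKM in the metastases (−0.89 ± 0.14, adjusted p = 0.0733). SERPINA1, the inhibitor of neutrophil elastase, was at 16.7 to 19.1 RPKM against 2.30 and 9.16 RPKM. This member blocks proteases and is no protease itself. Of the adhesion list, 7 of 20 had an unadjusted p under 0.05, all lower, against the same 14% of all genes. Its median was −0.72 in metastasis 1 and −0.11 in metastasis 2. The integrin subunit ITGA2 was at 29.8 to 43.1 RPKM in the tumors and 23.2 and 24.2 RPKM in the metastases, and ITGB1 at 162 to 255 RPKM against 129.7 and 119.8 RPKM. In all, 6 protease genes and 3 adhesion genes passed with the mouse as a random effect, all lower, against 6.62% of all genes. With the exon-length trend removed, 3 of 20 adhesion genes had an unadjusted p under 0.05, all lower, against 11.8% of all genes in that fit.

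All 13 protein-coding genes of the mitochondrial genome were higher, each with an unadjusted p under 0.05 and none with an adjusted p under 0.05. At the unadjusted threshold 9.3% of all genes were higher. The median difference of the 13 was 0.71, and 0.44 with the exon-length trend removed. MT-CO3, a subunit of cytochrome oxidase, was at 11642, 10107, 12498 and 11705 RPKM in the tumors and 19174 and 21688 RPKM in the metastases (0.83 ± 0.16, adjusted p = 0.0824). The metastases were above every tumor for all 13 genes, against 11.9% of all genes. With the mouse as a random effect 6 of 13 passed, all higher, against 4.15% of all genes. MT-CO2 was at 5659 to 8797 RPKM against 16055 and 14299 RPKM. The RPKM of all 58719 genes with deposited values, tested or not, summed to 309076 to 340489 in the tumors and to 424404 and 395828 in the metastases. An unadjusted p under 0.05 was kept by 7 of 13 with the mouse as a fixed block (6.96% of all genes), by 7 without metastasis 1 (12.5%) and by 4 without metastasis 2 (10.1%). With the exon-length trend removed, 3 of 13 kept an unadjusted p under 0.05, against 6.88% of all genes.

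Of the ribosomal protein list, 14 of 30 had an unadjusted p under 0.05, all higher, against 9.3% of all genes. The list's median was 0.36. RPLP1, of the ribosomal stalk, was at 134 to 161 RPKM in the tumors and 253 and 218 RPKM in the metastases. With the mouse as a random effect 7 of 30 passed, all higher, against 4.15% of all genes. With the mouse as a fixed block 9 of 30 had an unadjusted p under 0.05, against 6.96% of all genes, and without metastasis 1, 7 of 30 did, against 12.5%. Exon lengths were 1637 bases for RPLP2, 3252 for RPLP1, 3866 for RPL13 and 4304 for RPS9, and those of the other members are not given here. The list's median was 0.33 with the length trend described above removed. With that trend removed, 14 of 30 had an unadjusted p under 0.05, against 6.88% of all genes.

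Proliferation genes were higher for 6 of 30 and lower for 1 at an unadjusted p under 0.05, against 9.3% of all genes higher and 14% lower. BIRC5, an inhibitor of apoptosis that is active in mitosis, was at 14.1 to 19.5 RPKM against 27.8 and 25.4 RPKM, and MCM2, of the replication helicase, at 8.49 to 12.2 RPKM against 4.30 and 6.84 RPKM. In the NF-κB and chemokine list, CXCL5 was the 1 of 16 that passed an adjusted p of 0.05, and 4 had an unadjusted p under 0.05 in the lower and 1 in the higher direction. LCN2, an iron-binding secreted protein, was at 56.8 to 76.5 RPKM against 32.2 and 12.1 RPKM (adjusted p = 0.0836). ICAM1, an adhesion molecule for leukocytes, was at 3.04 to 3.59 RPKM against 1.45 and 1.25 RPKM (adjusted p = 0.0620). Interferon response genes had 4 of 29 lower at an unadjusted p under 0.05, close to the 14% of all genes, with medians of 0.36 in metastasis 1 and −0.70 in metastasis 2. XAF1 was the member with the smallest p, at 9.79 to 13.7 RPKM against 6.53 and 6.59 RPKM.

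In the lists that follow, higher and lower refer to an unadjusted p under 0.05. The shares of all genes at that threshold were 14% lower and 9.3% higher. No member passed an adjusted p of 0.05 in the main fit of 6 samples. With the mouse as a random effect 3 lipid handling, 3 brush border and 1 immediate early gene passed in the lower direction. In the higher direction 1 cholesterol synthesis and 1 stress gene did. Of all genes, 6.62% passed lower and 4.15% higher in that fit. Lipid handling genes had 5 of 19 lower and 0 higher. ANGPTL4, an inhibitor of lipoprotein lipase that low oxygen also induces, was at 18.3, 43.4, 46.7 and 26.1 RPKM against 12.1 and 6.50 RPKM (−1.71 ± 0.40, adjusted p = 0.0883). SCD, the desaturase of fatty acids, was at 105 to 117 RPKM against 78.4 and 74.1 RPKM. Cholesterol synthesis genes had 2 of 22 higher and 0 lower, close to the 9.3% of all genes that were higher, among them ACAT2 at 4.78 to 7.34 RPKM against 10.3 and 8.64 RPKM. Of the brush border list 3 of 10 were lower, with the peptidase DPP4 at 3.87 to 5.72 RPKM against 2.57 and 0.683 RPKM. In the stress list 1 of 16 was higher, SDF2L1 of the endoplasmic reticulum, at 7.97 to 12.3 RPKM against 20.8 and 19.5 RPKM. Immediate early genes had 4 of 17 lower, with KLF4 at 27.9 to 33.6 RPKM against 20.5 and 13.0 RPKM.

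The genes that the study follows were compared next. FOXA1, a pioneer factor of endoderm, was at 1.26, 1.34, 1.36 and 1.87 RPKM in tumors 1 to 4 and 0.362 and 0.602 RPKM in metastases 1 and 2 (−0.73 ± 0.17, adjusted p = 0.0872, and 0.0268 with the mouse as a random effect). Both metastases were below all tumors, and 3 control tumors were at 0.519 to 0.932 RPKM. PRMT1, an arginine methyltransferase, was at 18.3 to 21.2 RPKM against 26.9 and 29.0 RPKM (0.47 ± 0.13, adjusted p = 0.113). MYC was at 45.4 to 53.5 RPKM against 36.0 and 38.6 RPKM. HNF4A, at 14.6 to 21.9 RPKM against 15.8 and 17.9 RPKM, and GATA6, at 6.79 to 8.35 RPKM against 6.27 and 6.69 RPKM, had log2 differences of −0.12 and −0.17. TRIB1 was at 22.1 to 27.4 RPKM against 25.8 and 18.7 RPKM, and the long noncoding RNA PVT1 at 3.10 to 3.58 RPKM against 3.69 and 3.07 RPKM. Of the wider list of HNF, FOX and GATA factors 5 of 11 had an unadjusted p under 0.05, all lower, against 14% of all genes. KLF5, a factor of gut and pancreatic epithelium, was at 111 to 121 RPKM in the tumors and 79.2 and 69.5 RPKM in the metastases, and CDX2, a factor of the intestine, at 5.80 to 8.85 RPKM against 4.39 and 2.14 RPKM.

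Differences within the 2 mice that gave both sites were then set side by side. Over 13961 genes they had the same sign in 68.2% of genes (Pearson r = 0.389, Spearman 0.463, across genes, which are not independent replicates). Both were lower by 1 or more in 76 genes (0.544%), of which 63 encode proteins, and both were higher by 1 or more in 62 genes (0.444%), of which 6 encode proteins and 31 are processed pseudogenes. The 9 tested genes of the shorter skeletal muscle list differed by −0.25 to 0.017 in the first mouse and by 3.21 to 8.32 in the second. The 2 pairs cannot give an exact paired p below 0.5.

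**Figure D5:**
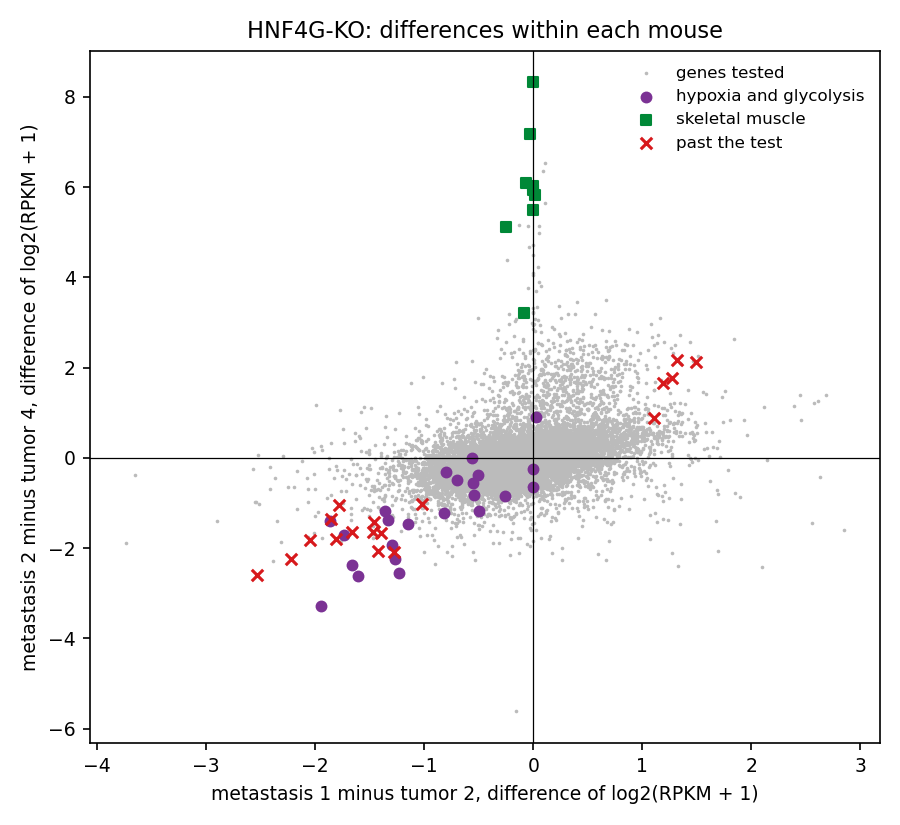
Differences of log2(RPKM + 1) within each mouse for 13961 genes, metastasis 1 minus tumor 2 on the horizontal axis and metastasis 2 minus tumor 4 on the vertical axis. Red crosses are the 18 genes that passed the test, and purple points are hypoxia and glycolysis genes. Green squares are the 9 tested genes of the shorter skeletal muscle list. The crosses lie in the 2 corners of shared sign, as genes whose groups do not overlap must. The squares lie between 3.21 and 8.32 on the vertical axis and between −0.25 and 0.017 on the horizontal axis.

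Some genes stood apart in 1 metastasis. At a log2 difference of 2 or more from the tumor mean, 133 genes were higher in metastasis 2 with metastasis 1 within 0.5, and 2 genes the other way round. In metastasis 1, genes of motile cilia were low. FOXJ1, the factor that drives motile cilia formation, was at 60.9, 50.7, 63.7 and 54.4 RPKM in the tumors, 7.73 RPKM in metastasis 1 and 45.6 RPKM in metastasis 2. The 40 cilia genes in the table summed to 159 to 190 RPKM in the tumors, 33.7 RPKM in metastasis 1 and 154 RPKM in metastasis 2. This list was chosen after the values were seen, so its count of 14 of 23 with an unadjusted p under 0.05, all lower, is a description.

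The difference between sites in HNF4G-KO was then set against that in HNF4G-KO+FOXA1-OE in 1 fit, as a difference of differences. That group entered with the tumors of 4 mice and the metastases of 3 mice that were labelled as peritoneum or as peri mets in fat, and its spleen metastasis was left out. Of 14112 genes, 1 passed an adjusted p of 0.05 (0.00709%), and 18.6% had an unadjusted p under 0.05. The gene was FER1L6, which differed by −1.73 between the sites in HNF4G-KO and by 0.23 in HNF4G-KO+FOXA1-OE (difference −1.96 ± 0.25, adjusted p = 0.0385). In HNF4G-KO+FOXA1-OE it was at 4.15 to 10.5 RPKM in the 5 tumors and at 6.33, 7.95 and 9.40 RPKM in the 3 metastases, which overlapped. It was at 1.94 RPKM in the spleen metastasis that was left out of the fit, below all 5 tumors. It did not pass when any 1 of the tumors or metastasis 2 was left out, with adjusted p from 0.0668 to 0.162, and it passed at 0.00534 without metastasis 1. No member of the hypoxia list passed; its median was −0.97 in HNF4G-KO and −0.47 in HNF4G-KO+FOXA1-OE over 22 genes tested there. Ribosomal protein genes had medians of 0.36 and −0.66, with an unadjusted p under 0.05 for 18 of 30. Motile cilia genes, the list chosen for their level in metastasis 1, had medians of −0.94 and 0.28, and no test is given for them.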

How the data were processed

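RNA was measured by sequencing of bulk xenograft tissue. Per the labels' processing notes, the authors aligned reads with STAR 2.6.1a and assigned them to genes with featureCounts 2.0.4. The deposited values were RPKM for 58719 Ensembl genes. The study's methods name GRCh37 and the processing notes hg38, and the gene identifiers matched GENCODE 44 (GRCh38) for 58205 genes, from which positions, types and exon lengths were taken. Whether reads of mouse RNA were removed was not given in the sources used here, and host and human reads were not separated here.

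The members and the gene lists (30, plus 2 chosen after these values were seen) were chosen with earlier results of these data known. Genes whose RPKM averaged 1 or more in the 6 samples were tested as log2(RPKM + 1) with limma 3.58.1 (R 4.3.3, eBayes with trend), Benjamini-Hochberg over all of them. The study used DESeq2 on read numbers, which RPKM do not allow. Dividing each gene's RPKM by what 1 read is worth gave whole reads (within 0.02) for 98.4% of tested genes, and limma-voom on those reads was an alternative. Depth was 40.9 M to 64.1 M reads, and counting error was not modelled apart from the spread between samples.

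The 2 metastases were paired with the tumors of their mice by the animal number in the labels. Deviations from the group means correlated at 0.249 and 0.303 over 13961 genes. The fit without the mouse gave the reported values. Tumors came from separate mice, and all cells from 1 pool of clones. Genes were named by a rule: all that passed if 20 or fewer in a direction, up to 10 in that direction by smallest p where fewer passed, the factors of the study, and up to 4 of each list by smallest p, with a few more genes named where a count or marker was described. Windows of 32 bases were matched between human gene models and mouse transcripts (GENCODE M21). Mouse KPC cell lines were not used here. Some genes that the rule names are not reported here.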

Additional observations from a re-analysis of the deposited data

Results flagged for a closer look

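Of the genes named in the text, 6 had 1 tumor whose distance from the nearest of the other 3 exceeded the 95% limit for 4 values (Dixon, log2 scale). Chance gives about 1 in 20 such groups, and 97 genes were examined. NDRG1 was low in tumor 1 (40.0 RPKM), as was ITGA2 (29.8 RPKM). COL9A2 was low in tumor 3 (5.21 RPKM), as was ELF3 (41.0 RPKM). SNAI3 was high in tumor 4 (8.55 RPKM), and RPLP2 was low there (155 RPKM). FER1L6 was the gene whose site difference differed between HNF4G-KO and HNF4G-KO+FOXA1-OE, by −1.96 on the log2 scale (limma, adjusted p = 0.0385).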

How the results depend on the processing

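The 18 genes that passed kept their direction in every alternative run that tested them. Each kept its call in only 6 to 11 of these runs (CXCL5, for example, was tested in 17). The number of calls was less stable than the direction. It was 0 with no filter on RPKM (40059 genes tested), 1 at a mean RPKM of 5, 36 with samples shifted to the same median (22 higher, 14 lower), 7 without the variance trend, 6 with all 21 HPAF-II samples in the fit, 11 with limma-voom on recovered reads and 1411 with the host fibroblast level as a covariate. With the mouse as a replicate block it was 0 (fixed) or 1503 (random), and leaving out 1 sample gave 0 to 1416. A pseudocount of 0.1, a log2 difference of at least 1, removal of the length trend and protein-coding genes alone (the last 2 chosen after seeing the data) stayed within 1.5 times. The cause of these shifts was not tested.

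The 1 call for the difference from HNF4G-KO+FOXA1-OE became 8 with no filter, 4 with the fibroblast covariate, 0 with samples shifted, without the trend or with the spleen metastasis included, and 0 to 196 with 1 sample left out. FER1L6 itself then had an adjusted p (limma) of 0.0528 with samples shifted, 0.0505 without the trend and 0.266 with the spleen metastasis.

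List medians with 1 sample left out ran from −1.23 to −0.64 (hypoxia), −1.07 to −0.46 (mucins), −0.72 to −0.11 (adhesion), −0.38 to −0.25 (proteases), 0.25 to 0.47 (ribosomal) and 0.62 to 0.80 (mitochondrial). Without the length trend adhesion was −0.23, proteases −0.25 and the mitochondrial list 0.44, and with samples shifted proteases were −0.26 and ribosomal genes 0.43. At a pseudocount of 0.1, 198 genes were lower and 166 higher by 1 or more in both mice. At a mean RPKM of 5, chromosome 8 had medians of 0.021 in metastasis 1 and −0.37 in metastasis 2.

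Signs turned with the fibroblast covariate for COL1A1 (−0.018), ACTA1 (−0.42), CKM (−0.38), MYH1 (−0.31), MYH4 (−0.31), HNF4G (0.78) and TRIB1 (0.052), and with the length trend removed for HNF4A (0.059). With 1 sample left out, MSLN ran from −0.49 to 0.32, CKM from −0.011 to 7.17, HNF4G from −1.003 to 0.69, TRIB1 from −0.43 to 0.014 and PVT1 from −0.075 to 0.13. With 2 metastases from 2 mice, precision was set by the number of samples, and genes under 1 RPKM were not tested.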
